A study of Mus musculus with 16 samples.

Results

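Sarcomere structure genes encode the proteins that build, cap and cross-link the filaments of heart muscle, and 35 of them were taken as a fixed list of mouse symbols. The list covered troponins and tropomyosins, proteins of the actin filament ends, titin with the thick filament and M-band, the Z-disc with its neighbours, and a pair of proteins that fold or modify myosin. A member was analysed when its normalized count, the reads of a gene divided by the size factor of its library, was 10 or more in at least 4 of the 16 libraries. This left 32 of the 35 members among 13331 genes tested and 22372 genes in the table, and each of the 32 reached that count in all 16 libraries. The libraries came from ventricle pieces of C57BL/6J mice, 10 to 12 weeks old when the experiment began, with 4 libraries in each of 4 groups. The labels number the libraries of a group but do not say that each came from its own mouse, so p-values measure the spread between these libraries. Mice of the Sham-Veh and Sham-THZ1 groups had the operation without the suture, while those of the TAC-Veh and TAC-THZ1 groups had transverse aortic constriction (TAC), in which a suture narrows the aortic arch and the left ventricle pumps against a raised pressure. THZ1, a covalent inhibitor of the transcriptional kinases CDK7, CDK12 and CDK13, was given intraperitoneally at 10 mg/kg, with 2 doses daily that began on day 1 and ended on day 60 after the operation, and the Veh groups received vehicle. The drug was given systemically, and each library was a mixture of the cell types in its piece of tissue.

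A sarcomere runs from one Z-disc to the next. Thin filaments of actin, tropomyosin and troponin are anchored at the Z-disc by α-actinin, thick filaments of myosin and myosin-binding protein C are linked at the M-band, and titin spans from Z-disc to M-band. Pressure overload is known for a return of fetal isoforms of several sarcomere proteins, and the Z-disc is known as a site where mechanical load is sensed.

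Reads recovered from the table came to 21431703 to 35812869 per library, of which the 13 mitochondrial genes held 33.2% to 44.7%. Ventricular identity was checked with a marker list. All 4 ventricular markers were tested, and their summed level was 326338 to 338417 normalized counts in Sham-Veh and 191810 to 340511 in TAC-Veh. Most of that sum was Myl2 and Myl3, which were not called with TAC. The other 2, Irx4 and Hey2, were called lower with TAC, beside 23.6% of all genes. With THZ1 in TAC, all 4 were called higher, beside 15.1% of all genes. Of the 6 atrial markers, Sln, Myl7 and Bmp10 were below the filter, and the summed level of the list was 416 to 462 in Sham-Veh and 825 to 1698 in TAC-Veh. The higher sum was that of Dkk3, from 60.2 ± 10.8 to 843 ± 403, as Myl4 and Nr2f2 were not called. Of the 9 skeletal muscle markers, Myh1, Myh4, Actn3 and Myog were below the filter. Of the 5 tested, Acta1 and Tnnt3 were higher with TAC and Tnni2 was lower. The summed level of the list was 2968 to 5608 in Sham-Veh and 60628 to 115276 in TAC-Veh. Most of that sum was Acta1, from 4161 ± 1091 to 86649 ± 23197.

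The members spanned a wide range of abundance. Divided by exon length, the group mean in Sham-Veh was 161662 normalized counts per kb for Tnnt2, cardiac troponin T, at the top. Tnni3, cardiac troponin I, followed at 53055 per kb, then Tcap, telethonin, at 33884 and Tpm1, α-tropomyosin, at 33705 per kb, which differed by less than the spread between libraries. At the low end, Tnnt1, slow skeletal troponin T, stood at 143 per kb and Myom3, the third myomesin, at 19.8 per kb. The 32 members together took 5.77% to 5.92% of the reads outside mitochondrial genes in Sham-Veh, 5.08% to 5.97% in TAC-Veh, 5.72% to 6.55% in TAC-THZ1 and 5.63% to 5.86% in Sham-THZ1. The ranges of TAC-Veh and Sham-Veh overlapped.

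**Figure D1:**
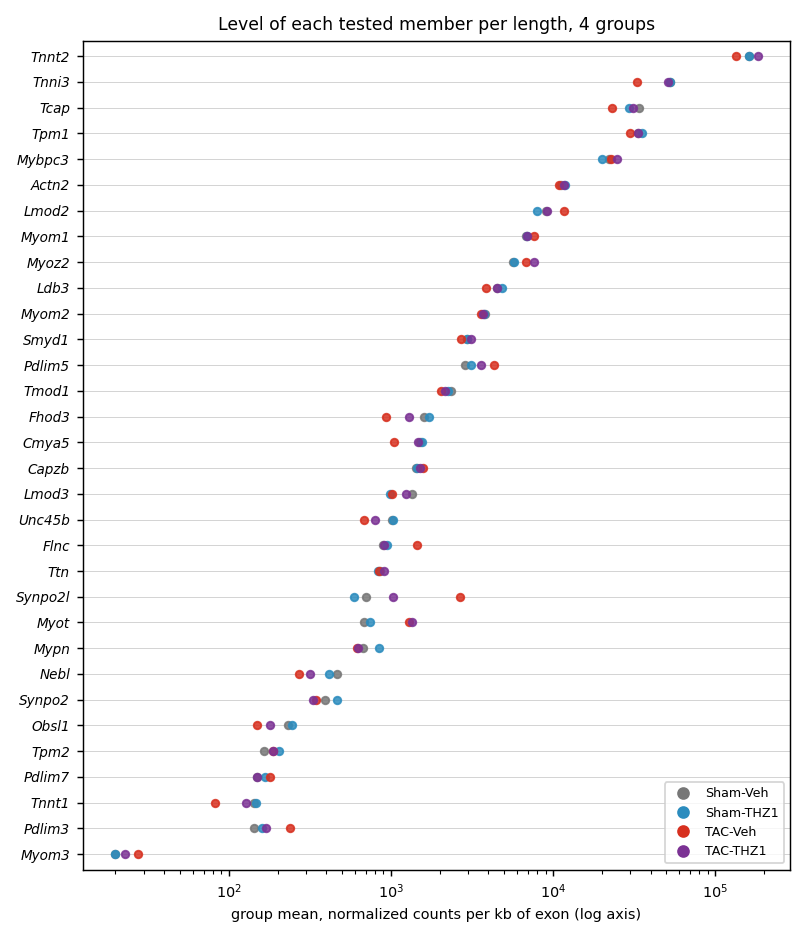
Group means of the 32 tested members in normalized counts per kb of exon, on a log axis, with 1 point for each of the 4 groups (n = 4 libraries each) and genes ordered by level. Tnnt2 stood at 161662 per kb in Sham-Veh and Myom3 at 19.8, and the points of Synpo2l were spread widest, from 589 in Sham-THZ1 to 2659 in TAC-Veh.

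Of the 3 members that were not tested, Tnnc1, the calcium-binding cardiac troponin C, and Nrap, a nebulin-related anchoring protein, were listed at 0 in every library. Each had 2 gene identifiers in the annotation, which shared 100% and 99% of their exonic bases for Tnnc1 and 99.9% and 100% for Nrap on the same strand. The level of either gene cannot be read from this table, and the part of the shared exons in these zeros was not tested. Tnni1, the slow skeletal troponin I that is the main form of the fetal heart, had 0 to 7 reads in a library, too few to pass the filter.

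Which sarcomere genes respond to pressure overload was asked by setting TAC-Veh against Sham-Veh. At an adjusted p under 0.05 in limma, 6 members were higher in TAC-Veh, 11 were lower and 15 were not called. Over all genes tested, 21.4% were higher and 23.6% were lower. The members' shares lay near the background in the higher direction and above it in the lower direction. The members had been chosen with earlier results of these data known, so these shares are descriptions. The median log2 fold change of the members was -0.14 against -0.00302 over all genes. The values of the 2 groups did not overlap for 18 of the 32 members, against 37.3% of all genes. Quantile normalization, which forces the same distribution of values on each library, gave 13 higher and 11 lower. Those then called higher as well were Capzb, Lmod2, Mybpc3, Myom1, Myoz2, Tpm1 and Ttn, while Actn2 was called lower in place of Ldb3. No share over all genes was taken under quantile normalization, so its counts have no background beside them.

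What the drug did in the overloaded heart was asked by setting TAC-THZ1 against TAC-Veh. Here 6 members were higher with THZ1, 3 were lower and 23 were not called, beside 15.1% higher and 14.2% lower over all genes. The groups did not overlap for 6 members, against 20.0% of all genes, and the median log2 fold change was 0.11 for the members and 0.0145 for all genes. Quantile normalization gave 5 higher and 6 lower, as the call of Tnnt2 was lost and Lmod2, Myom1 and Tpm1 were called lower. These counts, too, have no share over all genes under the same setting. This comparison and the one before share the TAC-Veh libraries, so a high or low value there moves both fold changes of a gene in opposite directions. In a bulk library, fewer cells of a type and less RNA per cell cannot be told apart.

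**Figure D2:**
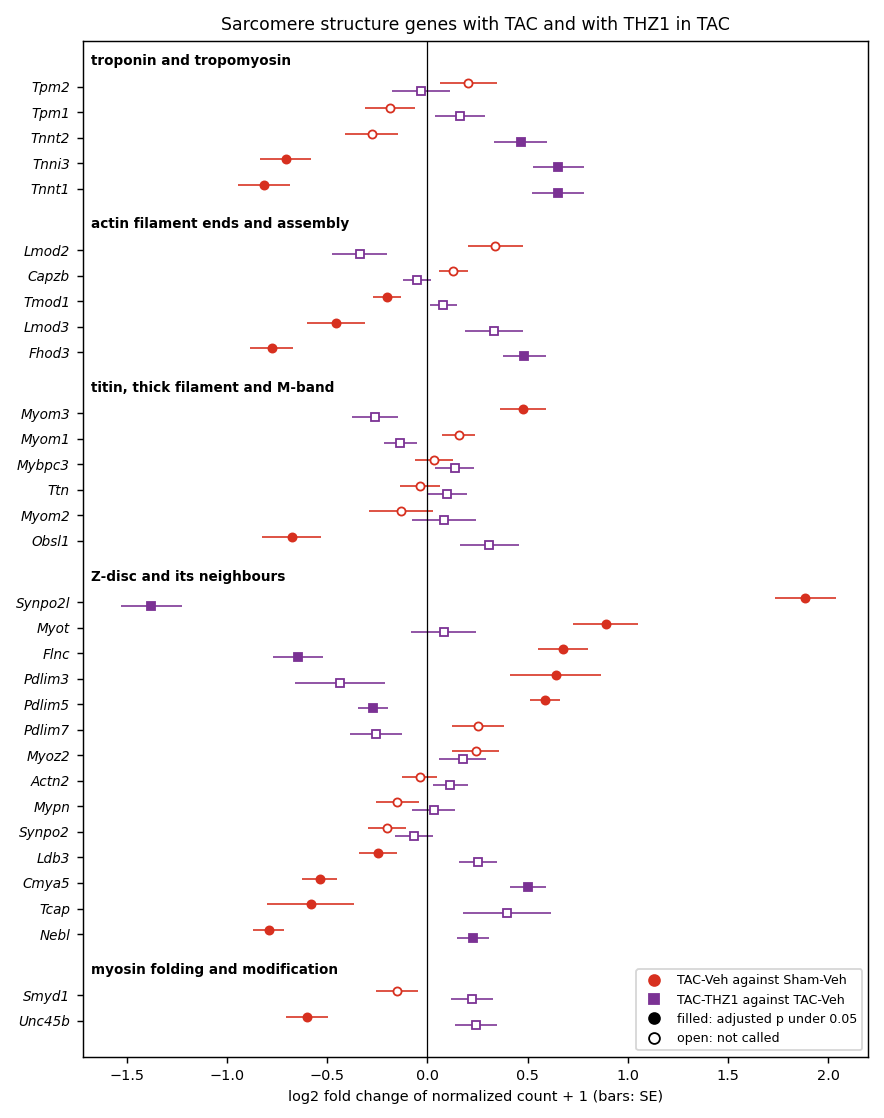
Log2 fold change of normalized count + 1 for each tested member, TAC-Veh against Sham-Veh (circles) and TAC-THZ1 against TAC-Veh (squares), with bars for the SE and filled symbols for an adjusted p under 0.05. Synpo2l lay at 1.89 with TAC and -1.38 with THZ1, farthest from 0 in both comparisons, and Tnni3 at -0.71 and 0.65.

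Cell type markers moved with the same groups. Their counts stand beside 21.4% of all genes higher and 23.6% lower with TAC. With THZ1 in TAC these shares were 15.1% and 14.2%. Of 8 cardiomyocyte markers, 5 were lower with TAC and none higher, with a median of -0.64, and 5 were higher with THZ1 in TAC. Their summed level was 1292460 to 1418340 in Sham-Veh, 627004 to 933801 in TAC-Veh and 974256 to 1217380 in TAC-THZ1. The list shares Myh6, Actc1 and Myl3 with the lists of sarcomere genes counted further on, and of the rest Atp2a2, the calcium pump of the sarcoplasmic reticulum, was at -1.30 with TAC and 0.55 with THZ1. Of 8 fibroblast markers, 6 were higher with TAC, with a median of 1.09, and 6 lower with THZ1, with a median of -1.02. The summed level of the fibroblast markers was 27975 to 31483 in Sham-Veh, 71681 to 157473 in TAC-Veh and 29924 to 42822 in TAC-THZ1. Of 6 smooth muscle markers, which matter here because Synpo2, Pdlim3 and Pdlim7 are also expressed in smooth muscle, 1 was higher and 3 were lower with TAC, and their summed level was 7287 to 9228 in Sham-Veh and 5355 to 6548 in TAC-Veh. Of 6 endothelial markers, 1 was higher and 2 were lower with TAC, and of 5 tested leukocyte markers 2 were higher. With THZ1 in TAC, 1 endothelial marker was higher and 3 were lower, 1 smooth muscle marker was higher and 1 lower, and 0 leukocyte markers were called. The part of these cell types in the members' values was not tested.

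Among the 14 tested genes of the Z-disc and its neighbours, 5 were higher and 4 lower with TAC. The shares over all genes were 21.4% higher and 23.6% lower. Synpo2l (synaptopodin 2-like, ENSMUSG00000039376, chromosome 14, 21478168 to 21487576), an actin-associated Z-disc protein, changed most. It stood at 3254, 3351, 3009 and 3479 normalized counts in the Sham-Veh libraries, 13658, 14053, 8567 and 12956 in TAC-Veh, 3639, 4533, 4457 and 6354 in TAC-THZ1 and 2646, 2766, 2937 and 2557 in Sham-THZ1. Every TAC-Veh library was above every library of the other groups, and every TAC-THZ1 library was above both sham groups. The mean rose from 3273 ± 199 to 12309 ± 2535 (SD, n = 4), 3.76-fold or 1.89 on the log2 scale (SE 0.15, adjusted p 2.82e-07). With THZ1 in TAC it fell to 4746 ± 1146, which was -1.38 on the log2 scale (SE 0.15, adjusted p 4.25e-05).

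RefSeq places 2 starts of Synpo2l on the minus strand of chromosome 14 of GRCm38.p6, a later build than the mm9 of the counts. Both windows are printed because this was the member with the largest change. They run 5′ to 3′ from 250 bases before to 50 bases after each start, at chr14:20668305-20668604 and chr14:20664525-20664824. Capitals mark the core of a MEF2 site, CTA and TAG with any 4 bases between them, in the first window. In the second they mark the E-box CAGCTG, which occurs near the 5′ end and again just after the start.
Synpo2l, first start: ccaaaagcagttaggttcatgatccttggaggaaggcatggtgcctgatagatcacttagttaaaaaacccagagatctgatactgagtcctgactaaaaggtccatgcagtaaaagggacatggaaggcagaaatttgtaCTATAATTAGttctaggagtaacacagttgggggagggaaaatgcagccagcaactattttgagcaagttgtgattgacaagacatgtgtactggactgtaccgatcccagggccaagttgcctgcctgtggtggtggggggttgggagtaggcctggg
Synpo2l, second start: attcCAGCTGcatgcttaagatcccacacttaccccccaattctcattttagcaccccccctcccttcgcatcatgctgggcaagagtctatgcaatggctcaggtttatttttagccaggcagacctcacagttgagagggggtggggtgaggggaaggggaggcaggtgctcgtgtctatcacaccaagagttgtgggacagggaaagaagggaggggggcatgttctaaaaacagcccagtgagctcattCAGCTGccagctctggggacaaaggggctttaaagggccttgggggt
The counts per gene do not tell which start was used, and a match is a run of letters, not a bound site.

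Flnc (filamin C, ENSMUSG00000068699, chromosome 6, 29383153 to 29411888), which cross-links actin at Z-discs and at the membrane, also rose with TAC and fell with THZ1 in TAC. Its libraries stood at 8505, 7732, 7981 and 9794 in Sham-Veh, 10672, 14384, 11988 and 18236 in TAC-Veh, 7858, 8343, 9071 and 9432 in TAC-THZ1 and 9245, 8968, 9252 and 8514 in Sham-THZ1. All TAC-Veh libraries lay above those of the other 3 groups, and the TAC-THZ1 libraries lay within the range of the sham hearts. The log2 fold change was 0.68 with TAC (SE 0.13, adjusted p 0.000418) and -0.65 with THZ1 in TAC (SE 0.13, adjusted p 0.00158).

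Pdlim5 (ENSMUSG00000028273, chromosome 3, 141903568 to 142058630), a PDZ and LIM domain protein that binds α-actinin, stood at 15795, 15199, 14818 and 15798 in Sham-Veh, 25959.6, 22919.5, 23466 and 20505 in TAC-Veh, 17257, 18948, 20822 and 19733 in TAC-THZ1 and 17086, 17055, 16321 and 16282 in Sham-THZ1. It rose with TAC by 0.59 (log2, SE 0.07, adjusted p 1.51e-05). With THZ1 in TAC the log2 fold change was -0.27 (SE 0.07, adjusted p 0.0124), although 1 TAC-THZ1 library was above the lowest TAC-Veh library. Fitted on these 2 groups alone, the call with THZ1 was lost at an adjusted p of 0.130.

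Myot and Pdlim3 rose with TAC and were not called with THZ1. Myot (myotilin, ENSMUSG00000024471), a partner of α-actinin and filamin, stood at 1584, 1232, 1689.6 and 1567 in Sham-Veh, 2431, 2209, 3426 and 3307 in TAC-Veh, 2994, 2858, 2378 and 3745 in TAC-THZ1 and 1430.1, 2094, 1493 and 1512 in Sham-THZ1. Both TAC groups were above both sham groups without overlap. The log2 fold change of Myot was 0.89 with TAC (SE 0.16, adjusted p 0.00038) and 0.08 with THZ1 in TAC (SE 0.16, adjusted p 0.743). Pdlim3 (ENSMUSG00000031636, chromosome 8, 46970839 to 47004900), another PDZ and LIM domain protein of the Z-disc, stood at 249, 221, 219 and 214 in Sham-Veh, 656, 300.3, 266 and 291 in TAC-Veh, 191, 297, 352 and 227 in TAC-THZ1 and 245, 260.1, 263 and 251 in Sham-THZ1. One TAC-Veh library was more than 2-fold above the other 3. The log2 fold change of Pdlim3 with TAC, 0.64 (SE 0.23, adjusted p 0.0298), fell to 0.34 without that library and was then not called; the call was also lost without Sham-Veh replicate 2, 3 or 4.

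The 4 Z-disc genes that fell with TAC were Nebl, Tcap, Cmya5 and Ldb3. Nebl (nebulette, ENSMUSG00000053702, chromosome 2, 17265536 to 17653091), a nebulin relative that ties thin filaments to the cardiac Z-disc, stood at 6233, 7044, 6742 and 6136 in Sham-Veh, 3705, 3373, 3699 and 4372 in TAC-Veh, 4108, 4748, 4676 and 4161 in TAC-THZ1 and 5570.1, 5566, 5997 and 6016 in Sham-THZ1. Neither TAC group overlapped a sham group. Its log2 fold change was -0.79 with TAC (SE 0.08, adjusted p 1.41e-06) and 0.23 with THZ1 in TAC (SE 0.08, adjusted p 0.0374). The call with THZ1 was kept in 19 of 27 alternatives, with an adjusted p of 0.00549 to 0.152 over all of them, and it was lost without TAC-Veh replicate 1, 2 or 3 and without TAC-THZ1 replicate 2 or 3.

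Cmya5 (myospryn, ENSMUSG00000047419, chromosome 13, 93810668 to 93914679), a large protein of the costamere that binds desmin and α-actinin, stood at 17496, 18191, 18338 and 17473 in Sham-Veh, 12192, 10280, 14149 and 12940.5 in TAC-Veh, 16667, 19894, 15563 and 17810.2 in TAC-THZ1 and 18027, 19049.6, 18445 and 18115 in Sham-THZ1. The TAC-Veh libraries were below all others. On the log2 scale Cmya5 changed by -0.54 with TAC (SE 0.09, adjusted p 0.000161) and 0.50 with THZ1 in TAC (SE 0.09, adjusted p 0.000873).

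Tcap (telethonin), which joins titin ends in the Z-disc, went from 32122 ± 3214 to 22088 ± 6271 with TAC, a log2 change of -0.58 (SE 0.22, adjusted p 0.0388). Ldb3 (Cypher, which holds the α-actinin lattice together) went from 27171 ± 721 to 23153 ± 3620.4, a log2 change of -0.24 (SE 0.09, adjusted p 0.0449). Both calls lay close to the threshold and were kept in 18 of 27 alternatives for Tcap and 9 of 27 for Ldb3. That of Tcap was lost without any 1 of the Sham-Veh libraries and without TAC-Veh replicate 2 or 4, and that of Ldb3 without any 1 of the sham libraries of either group, TAC-Veh replicate 1 or 2, or TAC-THZ1 replicate 4. Neither passed the test with THZ1 in TAC, where the log2 fold changes were 0.40 for Tcap and 0.25 for Ldb3.

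Actn2 (α-actinin 2, ENSMUSG00000052374, chromosome 13, 12361693 to 12433027), the main cross-linker of the Z-disc, stood at 39598, 41276, 39128 and 44822 in Sham-Veh, 45045, 34449, 39691 and 41725 in TAC-Veh, 39166, 46687, 43428 and 44368 in TAC-THZ1 and 42686, 43844, 43926 and 43982 in Sham-THZ1. The groups overlapped in both comparisons. Its log2 fold change was -0.04 with TAC (SE 0.09, adjusted p 0.741) and 0.11 with THZ1 in TAC (SE 0.09, adjusted p 0.347). Quantile normalization moved the value of Actn2 with TAC to -0.175 and called it at an adjusted p of 0.036. The other Z-disc members that were not called with TAC were Myoz2 (calsarcin-1, which binds calcineurin) at 0.24, Mypn (myopalladin) at -0.15, Pdlim7 (a PDZ and LIM domain protein) at 0.25 and Synpo2 (myopodin) at -0.20 on the log2 scale.

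Among the 5 tested troponins and tropomyosins, 2 were lower with TAC and none higher, and 3 were higher with THZ1 in TAC. Beside them, 23.6% of all genes were lower and 21.4% higher with TAC, and 15.1% were higher with THZ1 in TAC. Tnni3 (ENSMUSG00000035458, chromosome 7, 4469907 to 4475831), the inhibitory subunit of the cardiac troponin complex, stood at 99389.9, 105214, 104103 and 100453 in Sham-Veh, 73477, 47953, 75753 and 57677 in TAC-Veh, 93625, 114063, 91306 and 96401 in TAC-THZ1 and 100573, 104295, 104630 and 99937 in Sham-THZ1. All TAC-Veh libraries were below all others, and the TAC-THZ1 libraries straddled the range of the sham hearts. The mean fell from 102290 ± 2806 to 63715 ± 13230 with TAC, a log2 change of -0.71 (SE 0.13, adjusted p 0.000327), and was 98849 ± 10354 in TAC-THZ1, 0.65 above TAC-Veh on the log2 scale (SE 0.13, adjusted p 0.0016).

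Tnnt1 (ENSMUSG00000064179, chromosome 7, 4456172 to 4467984), the tropomyosin-binding subunit of slow skeletal muscle, stood at 269, 328, 319 and 337 in Sham-Veh, 158, 143, 226 and 192 in TAC-Veh, 262, 344, 251 and 263 in TAC-THZ1 and 315, 312, 326 and 328 in Sham-THZ1. Its groups were ordered as those of Tnni3, with TAC-Veh below all others. On the log2 scale Tnnt1 changed by -0.82 with TAC (SE 0.13, adjusted p 0.000107), the largest fall of any tested member, and 0.65 with THZ1 in TAC (SE 0.13, adjusted p 0.00179).

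Tnnt1 and Tnni3 are neighbours on the minus strand of chromosome 7, with Tnni3 upstream and 1922 bp between them. Per kb, Tnnt1 was at 0.271% ± 0.0233 of Tnni3 in Sham-Veh, 0.254% ± 0.0445 in TAC-Veh, 0.250% ± 0.0113 in TAC-THZ1 and 0.277% ± 0.0106 in Sham-THZ1 (SD, n = 4). The part of transcripts that run on from Tnni3 in the counts of Tnnt1 was not tested. The RefSeq windows of both genes, at chr7:4515926-4516225 for Tnnt1 and chr7:4522479-4522778 for Tnni3 on the minus strand of GRCm38.p6, are shown because Tnnt1 had the largest fall with TAC and, for Tnni3, because both fell with TAC and rose with THZ1; the second was chosen after its values were seen. The capitals in the Tnnt1 window mark TATAAA, the TATA motif, and none of the motifs searched was found in that of Tnni3.
Tnnt1: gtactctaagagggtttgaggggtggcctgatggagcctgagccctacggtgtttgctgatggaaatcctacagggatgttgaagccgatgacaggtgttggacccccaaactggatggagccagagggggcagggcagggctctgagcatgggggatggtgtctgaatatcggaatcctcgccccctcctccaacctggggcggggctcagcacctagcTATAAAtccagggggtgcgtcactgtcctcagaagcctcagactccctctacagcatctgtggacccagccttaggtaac
Tnni3: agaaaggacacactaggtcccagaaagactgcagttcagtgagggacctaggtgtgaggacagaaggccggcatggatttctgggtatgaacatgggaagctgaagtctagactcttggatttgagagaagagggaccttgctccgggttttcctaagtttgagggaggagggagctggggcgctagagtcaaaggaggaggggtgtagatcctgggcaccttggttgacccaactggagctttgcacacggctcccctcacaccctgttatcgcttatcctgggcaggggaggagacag

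Tnnt2 (ENSMUSG00000026414, chromosome 1, 137737452 to 137748837), the tropomyosin-binding subunit of the heart, stood at 173029, 186974, 175391 and 179800 in Sham-Veh, 189618, 118900, 155278 and 135133 in TAC-Veh, 197674, 226650, 206325 and 186178 in TAC-THZ1 and 180190, 183391, 180096 and 175395 in Sham-THZ1. The TAC-Veh libraries were spread from below to above the sham hearts. The log2 fold change of Tnnt2 was -0.28 with TAC (SE 0.13, adjusted p 0.0974), which was not called, and 0.47 with THZ1 in TAC (SE 0.13, adjusted p 0.0145). Tnnt2 was called lower with TAC by array weights and DESeq2, at adjusted p-values of 0.0317 and 0.0463, and without TAC-Veh replicate 1, at -0.398 with an adjusted p of 0.015. Quantile normalization turned the value with TAC to 0.083. The call with THZ1 was lost in 3 of 27 alternatives, which were quantile normalization, no filter and the fit of the 2 groups alone, with adjusted p-values of 0.142, 0.0772 and 0.164. The tropomyosins that lie along actin were not called, with log2 fold changes of -0.19 with TAC and 0.16 with THZ1 for Tpm1, the α form, and of 0.20 and -0.03 for Tpm2, the β form. Both values of Tpm1 changed sign under quantile normalization.

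A change of isoform was looked for in 3 ratios per library, of a minor to a major paralog, with exact two-sided permutation tests and adjustment over 12 tests. The smallest p that 4 against 4 libraries can give is 0.0286. The log2 ratio of Tnnt1 to Tnnt2 was lower by 0.54 in TAC-Veh than in Sham-Veh (difference -0.54, exact permutation p 0.0286, adjusted 0.171) and lower by 0.38 in TAC-THZ1 than in Sham-THZ1 (difference -0.38, same p). The ratio of Tpm2 to Tpm1 was 0.39 higher with TAC (exact permutation p 0.114), and that of Tnni1 to Tnni3 was 0.66 higher (exact permutation p 0.171) on 0 to 7 reads of Tnni1. None passed the adjusted threshold. A ratio at the smallest possible p was still adjusted to 0.171, so this outcome was nearly fixed by the number of libraries and tests. It does not show that the ratios stayed the same. Per kb, Tnni1 stood at 0.00500% ± 0.00239 of Tnni3 in Sham-Veh and 0.00775% ± 0.00321 in TAC-Veh (SD, n = 4).

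At the ends of the actin filament, 3 of 5 tested members were lower with TAC and none higher, beside 23.6% and 21.4% of all genes. Fhod3 (ENSMUSG00000034295), a formin that assembles actin in cardiac muscle, stood at 7383, 9404, 8573 and 9225 in Sham-Veh, 5342, 3891, 5420.1 and 5642 in TAC-Veh, 7149, 7622, 6745 and 6625 in TAC-THZ1 and 8925, 10228, 8909 and 9091 in Sham-THZ1. TAC-Veh was below all others without overlap, and TAC-THZ1 lay below the Sham-THZ1 range. On the log2 scale Fhod3 changed by -0.78 with TAC (SE 0.11, adjusted p 2.71e-05) and 0.48 with THZ1 in TAC (SE 0.11, adjusted p 0.00319).

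Lmod3 (leiomodin 3, ENSMUSG00000044086, chromosome 6, 97188522 to 97202774), which nucleates actin and acts at the pointed end, stood at 3169, 3013, 3024 and 2917 in Sham-Veh, 1467, 2212, 2769 and 2641 in TAC-Veh, 2564, 2822, 2577 and 3197 in TAC-THZ1 and 2235, 1991, 2532 and 2104 in Sham-THZ1. All Sham-Veh libraries were above all Sham-THZ1 and all TAC-Veh libraries. For Lmod3, the log2 fold change was -0.46 with TAC (SE 0.15, adjusted p 0.0183) and 0.33 with THZ1 in TAC (SE 0.15, adjusted p 0.0986). Without TAC-Veh replicate 1, the lowest library, these were -0.26 and 0.136; Lmod3 was called with THZ1 without TAC-Veh replicate 3 or 4, and its call with TAC was lost in the fit of the 2 groups alone. Tmod1 (tropomodulin 1), the pointed-end cap, went from 9287 ± 395 to 8085 ± 624 with TAC, a log2 change of -0.20 (SE 0.07, adjusted p 0.0234) that was kept in 23 of 27 alternatives and lost without Sham-Veh replicate 3 or 4 or TAC-Veh replicate 2. Lmod2, which lengthens the thin filament where Tmod1 caps it, was not called at 0.34 with TAC (adjusted p 0.0545) and -0.34 with THZ1 (adjusted p 0.075), although its TAC-Veh libraries were all above Sham-Veh. DESeq2 and edgeR on the recovered reads called Lmod2 higher with TAC. Capzb, the β subunit of the barbed-end cap at the Z-disc, was not called at 0.13 and -0.05.

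In titin, the thick filament and the M-band, 1 of 6 tested members was higher and 1 lower with TAC. Of all genes, 21.4% were higher and 23.6% lower. The median absolute log2 fold change of the 6 with TAC was 0.145 against 0.262 over all genes. None of the 6 was called with THZ1 in TAC, beside 15.1% of all genes higher and 14.2% lower. Ttn (titin, ENSMUSG00000051747, chromosome 2, 76542037 to 76820604), the elastic ruler of the sarcomere, stood at 98819, 101826, 103046 and 99312 in Sham-Veh, 102074, 92516, 100141 and 97918 in TAC-Veh, 90445, 115484, 97939 and 118302 in TAC-THZ1 and 94612, 93616, 95433 and 105006 in Sham-THZ1. The 4 groups overlapped. The log2 fold change of Ttn was -0.04 with TAC (SE 0.10, adjusted p 0.780) and 0.10 with THZ1 in TAC (SE 0.10, adjusted p 0.493). Under quantile normalization these became 0.19, which was called at an adjusted p of 0.0121, and -0.063, which was not, so its direction depended on the scaling.

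Mybpc3 (cardiac myosin-binding protein C, ENSMUSG00000002100, chromosome 2, 90958301 to 90976673), which holds myosin heads near the thick filament, stood at 89989, 89857, 91538 and 99356 in Sham-Veh, 101957, 82381, 89953 and 106287 in TAC-Veh, 96932, 106379, 107638 and 105234 in TAC-THZ1 and 78716, 81787, 87046 and 85228 in Sham-THZ1. TAC-Veh spanned the values of Sham-Veh. Its log2 fold change was 0.03 with TAC (SE 0.10, adjusted p 0.813) and 0.14 with THZ1 in TAC (SE 0.10, adjusted p 0.308), and under quantile normalization these became 0.245, which was called at an adjusted p of 0.035, and -0.057.

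Obsl1 (obscurin-like 1, ENSMUSG00000026211, chromosome 1, 75475885 to 75503027), which binds titin and myomesin at the M-band, stood at 1919, 2032, 1905 and 2212 in Sham-Veh, 891, 1154, 1328 and 1835 in TAC-Veh, 1343, 1725, 1541 and 1649.7 in TAC-THZ1 and 2112, 2104, 2221 and 2093 in Sham-THZ1. The TAC-Veh libraries were spread over a 2-fold range, all below Sham-Veh. For Obsl1, the log2 fold change was -0.68 with TAC (SE 0.15, adjusted p 0.00151) and 0.31 with THZ1 in TAC (SE 0.15, adjusted p 0.128). The second was 0.143 without TAC-Veh replicate 1, and it was 0.489 and called (adjusted p 0.00408) without TAC-Veh replicate 4. The myomesins cross-link thick filaments at the M-band. Myom3 rose with TAC from 119.8 ± 18.9 to 166 ± 7.94 normalized counts, a log2 change of 0.48 (SE 0.12, adjusted p 0.00318), while Myom1 at 0.16 and Myom2 at -0.13 were not called. Among the genes that act on myosin, the chaperone Unc45b fell with TAC from 4567 ± 167 to 3052 ± 587, a log2 change of -0.60 (SE 0.10, adjusted p 0.000218). Smyd1, a methyltransferase needed for sarcomere assembly, was not called at -0.15 with TAC. With THZ1 in TAC neither was called, at 0.24 for Unc45b and 0.22 for Smyd1.

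**Figure D3:**
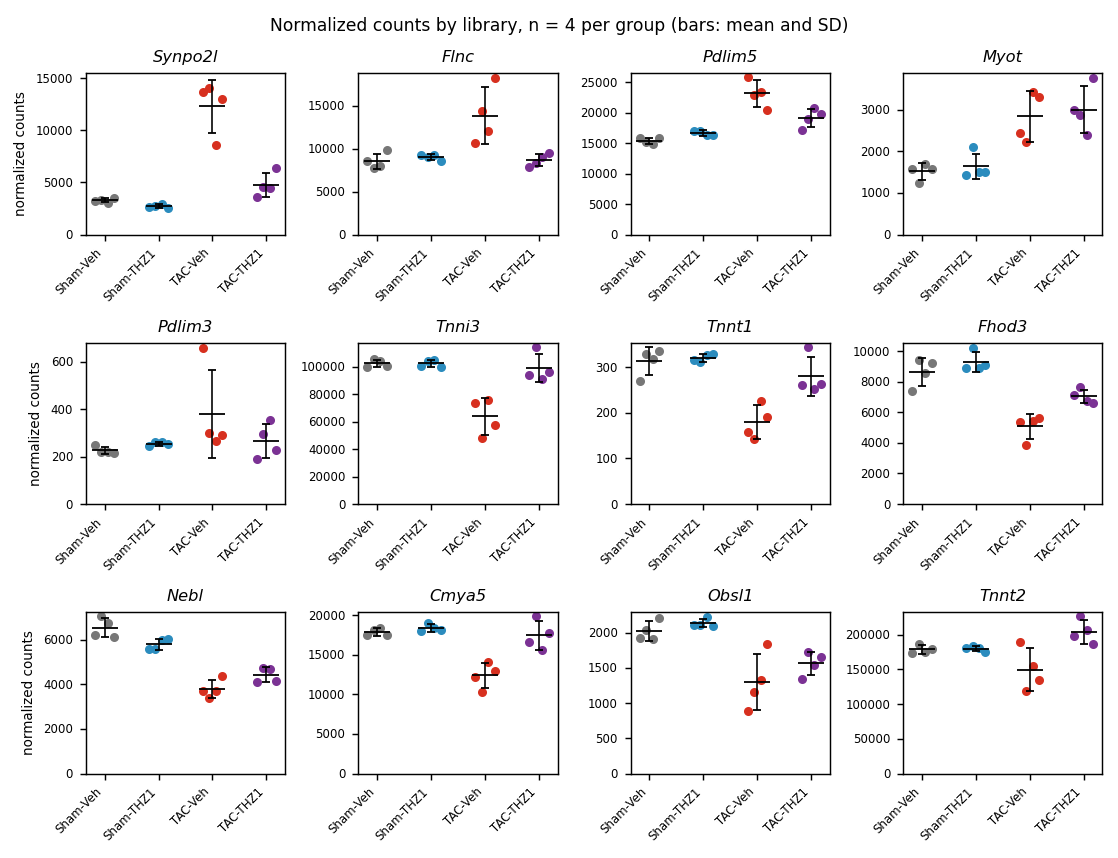
Normalized counts of 12 members in each library, with 4 points a group and black bars for the mean and SD; each axis starts at 0. The TAC-Veh points of Synpo2l, Flnc and Pdlim5 sat above both sham groups and those of Tnni3, Tnnt1, Fhod3, Nebl, Cmya5 and Obsl1 below them, while 1 TAC-Veh point of Pdlim3, at 656, stood far above its group.

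With the fold thresholds of the study, a log2 fold change of 1 with TAC and 0.89 with THZ1 in TAC, 1 member passed in each comparison. Synpo2l was the member past the first threshold upwards, against 4.64% of all genes, and past the second downwards, against 3.62%. No member passed downwards with TAC, against 3.37% of all genes, or upwards with THZ1, against 1.85%. At a log2 fold of 0.58 the numbers were 5 higher and 7 lower with TAC, and 2 higher and 2 lower with THZ1, beside 9.9% and 8.82% of all genes with TAC and 4.08% and 6.31% with THZ1. The second threshold of the study had been set on the change of Nppb in these same libraries.

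Sham-THZ1 was compared with Sham-Veh to see whether the drug moved the genes without overload. In limma, 0 members were called in either direction, beside 0.0225% of all genes higher and 0.045% lower. An unadjusted p under 0.05 was found for 5 of the 32 members and for 917 of all 13331 genes. DESeq2 and edgeR on the recovered reads called 0 as well. A fit of these 2 groups alone called 2 higher and 2 lower, and a fit with array weights 3 higher and 2 lower. The shares of all genes above are those of the main fit. None was taken under these 2 fits, so their counts cannot be set against a background. The groups did not overlap for 8 members, against 11.3% of all genes. The 5 members with an unadjusted p under 0.05 were Lmod3 at -0.46 (log2, SE 0.15, adjusted p 0.621), Mypn at 0.33 (SE 0.11, adjusted p 0.621), Synpo2 at 0.24 (SE 0.09), Tpm2 at 0.33 (SE 0.14) and Nebl at -0.17 (SE 0.08). Of these, Lmod3, Mypn and Synpo2 were called both by the fit of the 2 groups alone and with array weights. The fit of the 2 groups alone also called Synpo2l lower, at -0.26 with an adjusted p of 0.0162.

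Whether the drug acted differently in overloaded and in sham hearts was tested as the interaction, the log2 fold change with THZ1 in TAC minus that in sham. In 5 members the difference was positive and called, against 4.4% of all genes, and in 3 it was negative and called, against 5.62%. The negative ones were Synpo2l at -1.11 (SE 0.22, adjusted p 0.00637), Flnc at -0.73 (SE 0.18, adjusted p 0.0188) and Pdlim5 at -0.39 (SE 0.11, adjusted p 0.0307). The positive ones were Lmod3 at 0.79 (SE 0.21, adjusted p 0.0263), Nebl at 0.40 (SE 0.11, adjusted p 0.0316), Cmya5 at 0.46 (adjusted p 0.0323), Tnni3 at 0.65 (adjusted p 0.0327) and Tnnt1 at 0.61 (adjusted p 0.0431). Lmod3 stood apart in that its sham value, -0.46, made up more of the difference than its value in TAC, 0.33. The calls of Synpo2l and Flnc were kept in all 26 alternatives, and that of Pdlim5 in 18 of 26. Of the 5 positive calls, kept in 12 to 20 of 26, 0 were left without Sham-THZ1 replicate 2, without Sham-Veh replicate 2 or 3, or without TAC-THZ1 replicate 2.

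**Figure D4:**
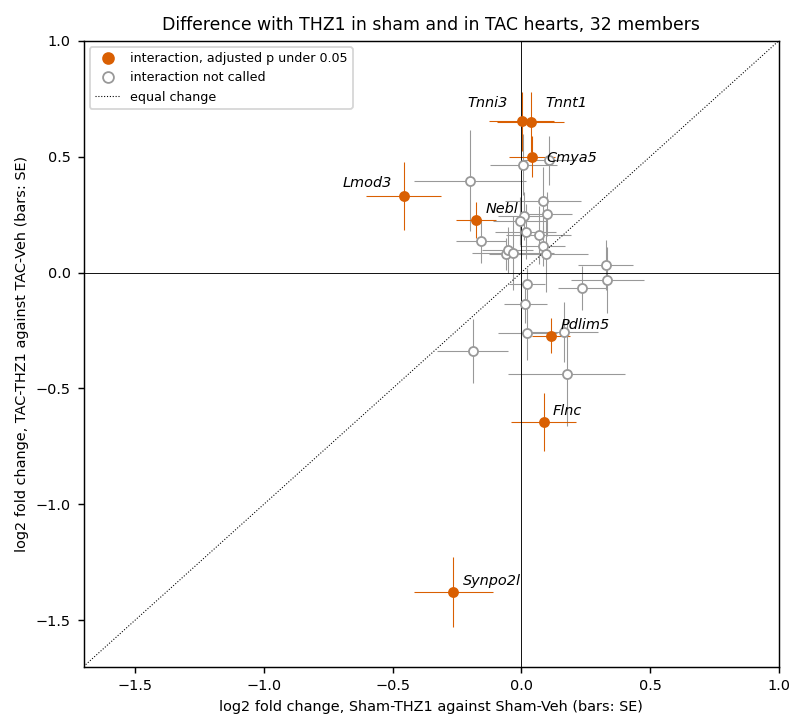
Log2 fold change with THZ1 in sham hearts (horizontal) and in TAC hearts (vertical) for the 32 tested members, with bars for the SE, filled points for an adjusted p of the interaction under 0.05 and a dotted line where both are equal. Synpo2l lay at -0.26 in sham and -1.38 in TAC, and Tnni3 at 0.00 and 0.65.

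The comparison of TAC-THZ1 with Sham-THZ1 asked what overload did in the presence of the drug. In it 4 members were higher, beside 11.4% of all genes, and 6 were lower, beside 12.8%. The higher ones were Myot at 0.87 (SE 0.16, adjusted p 0.0022), Synpo2l at 0.77 (SE 0.15, adjusted p 0.00297), Myoz2 at 0.40 (adjusted p 0.0223) and Mybpc3 at 0.32 (adjusted p 0.0239). The lower ones were Synpo2 at -0.51 (SE 0.09, adjusted p 0.00213), Obsl1 at -0.45 (adjusted p 0.0359), Mypn at -0.44 (adjusted p 0.00852), Fhod3 at -0.40 (adjusted p 0.0134), Nebl at -0.39 (adjusted p 0.00322) and Unc45b at -0.37 (adjusted p 0.0176). Without Sham-THZ1 replicate 1 or without TAC-THZ1 replicate 4, the number higher was 2, as the calls of Myoz2 and Mybpc3 were lost. The call of Obsl1 was kept in 20 of 27 alternatives and lost without any 1 of the Sham-THZ1 libraries or TAC-THZ1 replicate 1, 3 or 4. That of Unc45b was lost under quantile normalization and without TAC-THZ1 replicate 1. Flnc at -0.05 (SE 0.13), Tnni3 at -0.06 (SE 0.13) and Cmya5 at -0.08 (SE 0.09) were not called. Lmod3 at 0.33 (adjusted p 0.107), Pdlim5 at 0.20 (adjusted p 0.0634) and Tnnt1 at -0.20 (adjusted p 0.261) lay farther from the Sham-THZ1 level and were not called either.

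Other genes of the sarcomere were counted by lists. Their counts, here and below, stand beside 21.4% of all genes higher and 23.6% lower with TAC. With THZ1 in TAC these shares were 15.1% and 14.2%. Of 6 tested myosins, 1 was higher and 2 were lower with TAC, with a median log2 fold change of -0.33, and 3 were higher with THZ1 in TAC. Among them was Myh6, the fast α heavy chain of the adult heart, at -1.20 with TAC (adjusted p 0.000101) and 0.47 with THZ1 (adjusted p 0.0701). Myl2, the ventricular regulatory light chain, was at -0.40 (adjusted p 0.0545) and 0.68 (adjusted p 0.00584), and Myl3, the ventricular essential light chain, at -0.25 (adjusted p 0.132) and 0.46 (adjusted p 0.0155). Myh7, the slow β heavy chain of the fetal heart, went from 2258 ± 711 to 46552 ± 23910 with TAC, a log2 fold change of 4.24 (adjusted p 3.98e-06), and was at -0.95 with THZ1 (adjusted p 0.135). Of the sarcomeric actins, Actc1 of the heart was not called with TAC (-0.02), and Acta1 of skeletal muscle and the fetal heart went from 4161 ± 1091 to 86649 ± 23197 (4.38, adjusted p 1.53e-08) and fell with THZ1 (-1.17, adjusted p 0.00172). Myh6 and Myh7, like Acta1 and Actc1, are close copies of each other, and how reads common to both were counted bears on these values.

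Of 15 tested further genes of the Z-disc and costamere, 11 were higher and 2 lower with TAC, with a median of 0.80, and 10 were lower and 2 higher with THZ1 in TAC, with a median of -0.43. Among them were Ankrd1, a titin-binding ankyrin repeat protein induced by stretch, at 2.30 with TAC and -1.07 with THZ1, and Des, the intermediate filament desmin, at 0.89 and -0.43. Xirp2, an actin-binding Xin repeat protein, was at 2.25 and -1.30, and all 6 of these values were called. Fhl2, a LIM protein that binds titin, was at -0.26 with TAC (adjusted p 0.157) and 0.40 with THZ1 (adjusted p 0.0484). Of 7 tested further thick filament and M-band genes, 1 was higher and 4 lower with TAC, and 2 were higher with THZ1. Among them was Mylk3, the cardiac myosin light chain kinase, at -0.64 with TAC (adjusted p 1.84e-05) and, with THZ1, 0.39 (adjusted p 0.00288).

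Of 11 tested further thin filament genes, 6 were higher and 3 lower with TAC, with a median of 0.41, and 2 were higher and 3 lower with THZ1. Among them were Cfl2, the muscle cofilin, at 0.41 with TAC (adjusted p 0.000541), and Capza2, an α subunit of the barbed-end cap, at -0.03 (adjusted p 0.746), while Tpm4, a tropomyosin of the cytoskeleton, was at 0.71 (adjusted p 0.000961) and -0.73 with THZ1 (adjusted p 0.00184). Of 10 chaperones and ubiquitin ligases of the sarcomere, 4 were higher and 1 lower with TAC, with a median of 0.13, and 1 was higher with THZ1. The small heat shock proteins Hspb7 at 0.32 (adjusted p 0.016) and Cryab at 0.52 (adjusted p 0.000284) were among them. With THZ1 in sham hearts, 0 genes of these 6 lists were called. Ankrd1 nevertheless went from 31625 ± 8434 in Sham-Veh to 16877 ± 2683 in Sham-THZ1, a log2 change of -0.89 (SE 0.19, adjusted p 0.194). Its interaction, -0.18 (SE 0.26), was not called, so its fall with THZ1 was not shown to depend on overload. Of the 15 further Z-disc and costamere genes, 6 had a negative interaction that was called, beside 5.62% of all genes.

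Promoter windows were found in RefSeq for 30 of the 35 members, 39 windows in all, of 32851 in the table. Lmod3, Fhod3, Myom2, Tcap and Myot had none there. The MEF2 core, CTA and TAG with any 4 bases between them, which reads the same on both strands, was in 25.6% of the members' windows and in 3.69% of all windows. The members with it were Capzb, Flnc, Ldb3, Mybpc3, Myoz2, Obsl1, Synpo2, Synpo2l and Ttn, which include genes that rose, fell and were not called with TAC. The MCAT core CATTCC was in 25.6% of the members' windows against 14.7% of all, the E-box CAGCTG in 28.2% against 16.3%, the GATA motif AGATAA in 12.8% against 11.2%, TATAAA in 12.8% against 13.6% and the CArG box in 10.3% against 1.63%, each read on both strands. Windows of 1 gene can overlap, so these shares are descriptions.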

How the data were processed

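Ventricle RNA of 16 libraries, 4 in each of 4 groups named by the sample titles, was sequenced on stranded mRNA libraries. Per the labels and the study's methods, the authors aligned reads with TopHat2 2.1.1 to mm9, counted them per gene with HTSeq on the GENCODE annotation and scaled the counts with DESeq2. The deposited signal values are normalized counts. Because each value is a whole number of reads divided by a size factor, reads were recovered, and 100% of the values came out whole within 0.01, with 21431703 to 35812869 reads and size factors of 0.749 to 1.40. A value of 0 was 0 recovered reads, which allows an expected count of up to 3 reads. The 35 members, their roles and the other lists were chosen with earlier results of these data known.

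Genes with a normalized count of 10 or more in at least 4 columns were fitted with limma 3.58.1 (R 4.3.3, lmFit and eBayes with trend) on log2(normalized count + 1), a scale that understates changes of low genes. The fit had 1 mean per group and no covariate, 5 contrasts, and Benjamini-Hochberg adjustment over 13331 genes within a contrast. Calls are at an adjusted p under 0.05. Members given in full were, for the comparisons with TAC and with THZ1 in TAC, the 5 called members that changed most in each direction, the members with the 5 smallest adjusted p of the interaction, and 6 core members (Ttn, Tnnt2, Tnni3, Tnnc1, Mybpc3 and Actn2). Other lists are given by counts with up to 4 examples, highest counts first. Ratios of paralogs were tested by exact permutation. Levels per kb were divided by the union of exons in the mm9 annotation. Alternatives were DESeq2 1.42.0 and edgeR 4.0.16 on recovered reads, array weights, quantile and upper quartile scaling, pseudocounts of 0.5 and 8, no filter, a mean of at least 50, a fit of the 2 groups alone, the replicate number as a block, and each library left out. The fit was tested on simulated data. Promoter windows came from RefSeq (GRCm38.p6) and were matched by symbol. Coordinates of genes are those of mm9, and protein sequences were not used here. Of the tested members, Tnni3 (4.5%, 6030429G01Rik) and Obsl1 (0.7%, Chpf) share exonic bases with a gene on the same strand, and Tmod1 (32.6%), Unc45b (5.7%) and Ttn (0.4%) with 1 on the other strand.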

Additional observations from a re-analysis of the deposited data

Results flagged for a closer look

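In 9 of 132 groups of 4 libraries, 1 library lay apart from its group by Dixon's ratio, where chance gives about 1 in 20. In TAC-THZ1, replicate 2 was highest for Tnnt1 at 344 normalized counts. In TAC-Veh, replicate 1 was highest for Pdlim3 at 656. In Sham-THZ1, replicate 2 was highest for Fhod3 at 10228 and for Myot at 2094, replicate 3 for Myom3 at 131 and for Obsl1 at 2221, and replicate 4 for Ttn at 105006. Replicate 1 of Sham-THZ1 was lowest for Actn2 at 42686. In Sham-Veh, replicate 4 was highest for Pdlim7 at 794.

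The log2 fold change with THZ1 differed between TAC and sham hearts for 8 members in the limma interaction. The difference was -1.11 for Synpo2l, -0.73 for Flnc and -0.39 for Pdlim5. It was 0.79 for Lmod3, 0.65 for Tnni3, 0.61 for Tnnt1, 0.46 for Cmya5 and 0.40 for Nebl. Synpo2l and Flnc kept the call in 26 of 26 alternatives, Lmod3 and Nebl in 20, Pdlim5 in 18, Tnni3 and Cmya5 in 16 and Tnnt1 in 12.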

How the results depend on the processing

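Results were recomputed under 11 alternatives that kept all libraries and 16 that left 1 out. Of the values for named members and ratios, 875 kept direction and side of the threshold, 29 lost a call, 5 gained one and 16 changed sign. The cause of these changes was not tested. Quantile normalization gave 13 members higher with TAC, 6 lower with THZ1 in TAC and 5 with a negative interaction. It turned Ttn to 0.19 with TAC and -0.063 with THZ1, Tnnt2 to 0.083 with TAC and Mybpc3 to -0.057 with THZ1, and it called Ttn and Mybpc3 (0.245) higher and Actn2 (-0.175) lower with TAC. Array weights called 3 higher and 2 lower with THZ1 in sham and 7 higher in TAC-THZ1 against Sham-THZ1, and the fit of the 2 groups alone called 2 and 2 in sham. Without the filter, 3 members had a positive interaction. These counts of members have no share over all genes under the same setting beside them. A log2 fold of 0.58 passed 5 higher and 7 lower with TAC (9.9% and 8.82% of all genes), and 2 and 2 with THZ1 (4.08% and 6.31%). A pseudocount of 8 turned the ratio of Tnni1 to Tnni3 in TAC-THZ1 against Sham-THZ1 to 0.0023.

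Replicate numbers did not pair the libraries (correlations of same-numbered libraries from -0.43 to 0.16), and the replicate block left 2 positive and 2 negative interactions.

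With 1 library left out, the number higher was 5 to 10 with THZ1 in TAC (10 without TAC-Veh replicate 4) and 2 to 6 in TAC-THZ1 against Sham-THZ1 (2 without Sham-THZ1 replicate 1 or TAC-THZ1 replicate 4), and that of positive interactions 0 to 5. These were 0 without Sham-THZ1 replicate 2, Sham-Veh replicate 2 or 3, or TAC-THZ1 replicate 2, and 2 or 3 interactions stayed negative. With TAC, Mybpc3 ranged from -0.024 to 0.099 and Actn2 from -0.096 to 0.033. Ratios ranged from -0.217 to 0.276 for Tnni1 to Tnni3 and -0.027 to 0.061 for Tnnt1 to Tnnt2 with THZ1 in sham, and, in TAC-THZ1 against Sham-THZ1, from -0.783 to 0.284 for Tnni1 to Tnni3 and -0.197 to 0.054 for Tpm2 to Tpm1. Tnni1, with 0 to 7 reads a library, was too shallow for a difference to be detected.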
